A study of Mus musculus with 6 samples.

Results

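Transcripts of 10 immunoglobulin genes were followed in libraries of splenic CD4+ T cells. They were the heavy chain constant genes Ighm, Ighd, Igha, Ighg1, Ighg2b, Ighg2c and Ighg3, the light chain constant genes Igkc and Iglc2, and Jchain. The genes were chosen by name from the 54532 listed in the deposited tables. All 10 were found and all 10 had enough counts to be tested. The 6 libraries came from wild type C57BL/6J mice, all of which had colitis induced by dextran sulfate sodium in the drinking water. Of these, 3 came from mice that received the gut bacterium Akkermansia muciniphila each day, which feeds on mucus, and 3 from mice that received PBS, a buffered saline, in its place. The labels call them biological replicates and give batch 1 to all. The descriptions name CD4 for libraries numbered 1, CD5 for those numbered 2 and CD6 for those numbered 3, whereas the cell type entry of all 6 names CD4. Neither the age of the mice nor the way the cells were isolated is stated.

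Antibodies are made by B cells and by the plasma cells that derive from them. Each antibody pairs a heavy chain, whose constant region sets the isotype, with a kappa or lambda light chain. Naive B cells carry IgM and IgD, which are spliced from a shared transcript, and after class switching a B cell uses a gamma, epsilon or alpha constant gene further along the heavy chain locus. IgA is the main antibody of the gut, and the J chain links IgA into dimers and IgM into pentamers. T cells rearrange T cell receptor genes and make no antibody. RNA was measured in bulk, so fewer cells of a type and less RNA per cell cannot be told apart.

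The heavy chain genes lie in the order Ighm, Ighd, Ighg3, Ighg1, Ighg2b, Ighg2c, Ighe and Igha in the RefSeq annotation of GRCm38. The files were made on GRCm39, so no coordinates are given. The last 60 coding bases of the secreted forms are shown because they carry the feature that joins an isotype to the J chain. They were read 5′ to 3′ from GENCODE M21 transcripts, with the last codon but 1 before the stop codon in capitals. In the mu and alpha chains it is TGC, a cysteine codon and part of the tailpiece to which the J chain binds, and in the 2 gamma chains shown it is GGT, a glycine codon.
Ighm: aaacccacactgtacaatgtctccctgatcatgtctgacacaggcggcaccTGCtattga
Igha: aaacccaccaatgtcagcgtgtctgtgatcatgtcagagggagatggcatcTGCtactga
Ighg2c: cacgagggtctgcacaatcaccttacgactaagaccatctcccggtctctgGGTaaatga
Ighg2b: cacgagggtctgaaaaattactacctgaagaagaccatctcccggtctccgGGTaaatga

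The lambda constant genes are shown because near-identical copies can share reads. The 120 bases below start near the 5′ end of the coding sequence. In Iglc2 the capitals mark bases that differ from Iglc3, and in Iglc3 and Iglc1 they mark bases that differ from Iglc2. Iglc2 and Iglc3 differed at 11 of 317 aligned coding bases (96.5% identity) and shared a run of 79 bases, whereas Iglc2 and Iglc1 were 74.7% identical. Ighg2c and Ighg2b were 85.9% identical, with a shared run of 78 bases. How reads that fit several copies were counted is not stated, so levels of Iglc2 and of the gamma genes carry that uncertainty.
Iglc2: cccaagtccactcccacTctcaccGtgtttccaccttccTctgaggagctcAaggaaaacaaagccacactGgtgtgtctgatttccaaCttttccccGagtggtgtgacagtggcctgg
Iglc3: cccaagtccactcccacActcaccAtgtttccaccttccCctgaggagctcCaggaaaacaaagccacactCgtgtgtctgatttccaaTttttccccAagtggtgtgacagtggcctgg
Iglc1: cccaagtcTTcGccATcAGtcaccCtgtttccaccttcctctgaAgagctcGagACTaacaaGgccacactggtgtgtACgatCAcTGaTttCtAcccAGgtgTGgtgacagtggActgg

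Ighm, Ighd and Iglc2 rose with Akkermansia, and none of the 10 genes fell. The other 7 did not pass the test (edgeR quasi-likelihood test, Benjamini-Hochberg adjusted p under 0.05 over 15138 genes). Of all genes tested, 7.32% were called higher and 8.28% lower. The fitted log2 fold change was above 0 for all 10 genes, with a median of 0.76, against -0.0081 over all genes tested. In 6 of the 10 genes every Akkermansia library lay above every PBS library, which held for 17.1% of all genes tested. These were Ighm, Ighd, Igha, Igkc, Iglc2 and Jchain, while the 4 gamma genes overlapped between the groups. Summed over the 10 genes, the level was 2025 ± 141 CPM (counts scaled to library size) in the Akkermansia group against 1249 ± 329 CPM in the PBS group (SD, n = 3). The number called higher was 5 without PBS 2 or without PBS 3, and 2 without any one of the Akkermansia libraries.

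**Figure D1:**
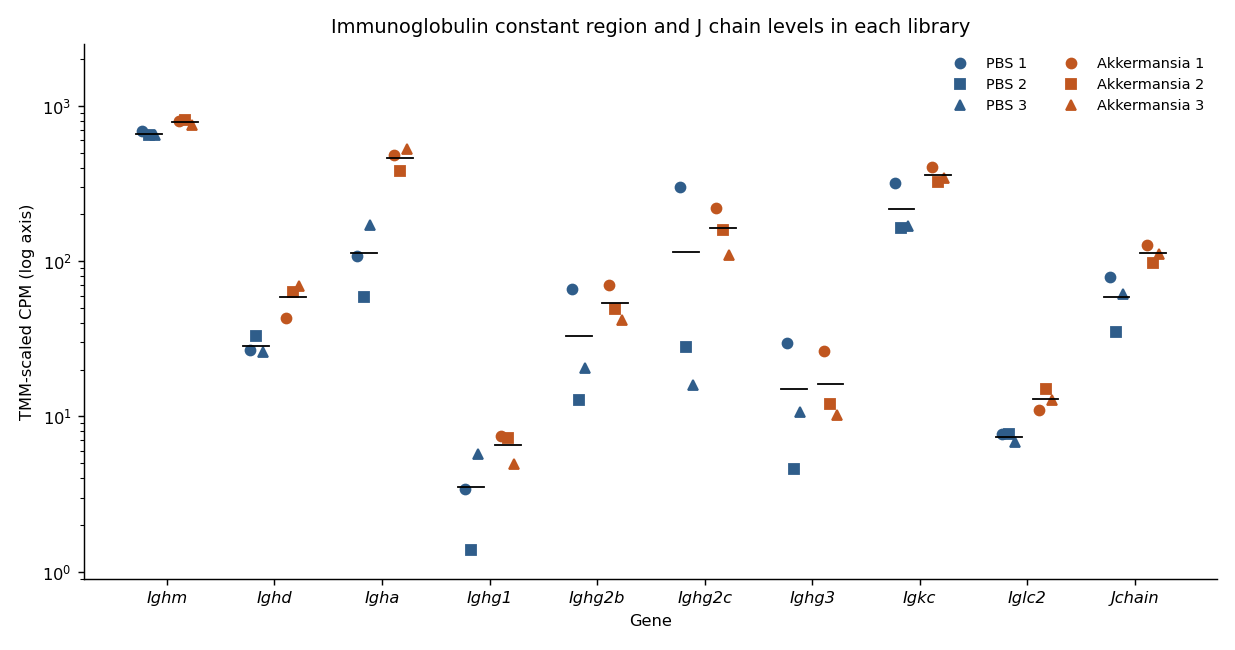
Level of each gene in each library, in CPM on a log axis, with PBS libraries in blue, Akkermansia libraries in orange and the group mean as a black line. The groups are apart for Ighm, Ighd, Igha, Igkc, Iglc2 and Jchain and overlap for the gamma genes, where PBS 1 lies above the other PBS libraries for Ighg2b, Ighg2c and Ighg3.

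Both unswitched isotypes rose, with fitted fold changes of unequal size. Ighm, the IgM heavy chain, had 796, 810 and 748 CPM in Akkermansia 1, 2 and 3, and 685, 650 and 645 CPM in PBS 1, 2 and 3. The groups were narrow and did not overlap, with a coefficient of variation of 4.12% with Akkermansia and 3.33% with PBS. The log2 fold change was 0.25 ± 0.07 (SE, adjusted p = 0.0267, higher in 3 of 3 libraries). Ighm was not called without Akkermansia 1, 2 or 3 (adjusted p = 0.0873, 0.132 and 0.0615). Ighd, the IgD heavy chain, had 43.0, 63.3 and 69.3 CPM with Akkermansia and 26.6, 32.9 and 26.1 CPM with PBS. Its lowest Akkermansia library, Akkermansia 1, stood above all PBS libraries, and the log2 fold change was 1.04 ± 0.18 (SE, adjusted p = 0.00773). Without PBS 1 it was 0.98 (adjusted p = 0.0562), which did not pass.

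Igha, the IgA heavy chain, had the largest fitted fold change of the 10 genes and did not pass the test. It had 479, 378 and 525 CPM in Akkermansia 1, 2 and 3, and 107, 58.8 and 170 CPM in PBS 1, 2 and 3. Every Akkermansia library stood above every PBS library, and the highest and lowest PBS libraries differed 2.90-fold, against 1.39-fold with Akkermansia. The log2 fold change was 2.04 ± 0.45 (SE, adjusted p = 0.0568). Igha passed in 7 of 15 alternative analyses, among them DESeq2 (adjusted p = 6.70e-05) and the analyses without PBS 2 (0.0368) or PBS 3 (0.0316). Without PBS 1 the adjusted p was 0.168.

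Jchain, which encodes the J chain, had 127, 97.5 and 111 CPM with Akkermansia and 78.5, 35.0 and 61.6 CPM with PBS. The groups did not overlap, and PBS 2 was the lowest library for Jchain as it was for Igha. The log2 fold change was 0.94 ± 0.33 (SE, adjusted p = 0.146), which did not pass. Without PBS 2, Jchain was called at a log2 fold change of 0.68 (adjusted p = 0.0151), and with DESeq2 at 0.95 (adjusted p = 0.0375).

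**Figure D2:**
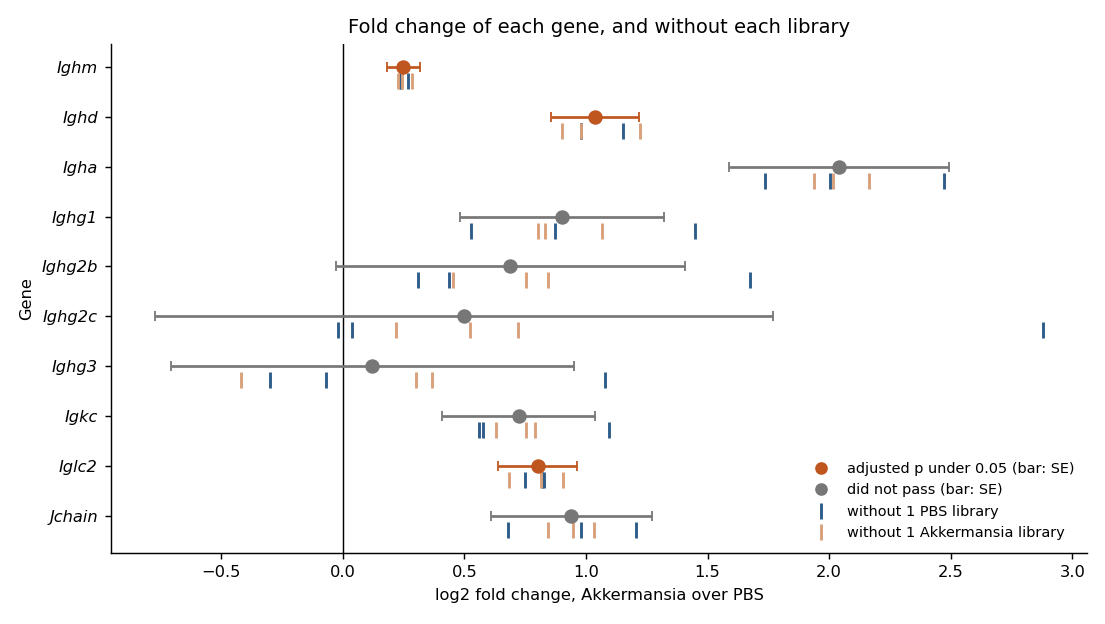
Log2 fold change of each gene, Akkermansia over PBS, with SE as bars and genes past the threshold in orange. Ticks below each point give the value without 1 library, and those of Ighg2c run from -0.02 without PBS 3 to 2.88 without PBS 1.

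The IgG genes did not pass, and their range among PBS libraries exceeded the difference between the groups. Ighg2c, the IgG2c heavy chain, had 221, 158 and 109 CPM in Akkermansia 1, 2 and 3, and 301, 28.1 and 15.9 CPM in PBS 1, 2 and 3. PBS 1 had the highest level of all 6 libraries, while PBS 2 and PBS 3 had the lowest, a 19.0-fold range within the group. The log2 fold change was 0.50 ± 1.27 (SE, adjusted p = 0.845). It was 2.88 without PBS 1 (adjusted p = 0.0707), 0.04 without PBS 2 and 0.22 without Akkermansia 1, and the sign turned without PBS 3 (-0.02).

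Ighg2b, the IgG2b heavy chain, had 69.8, 49.0 and 41.6 CPM with Akkermansia and 66.0, 12.8 and 20.5 CPM with PBS. PBS 1 lay inside the range of the Akkermansia group and the other PBS libraries below it. The log2 fold change was 0.69 ± 0.72 (SE, adjusted p = 0.603), and it was 1.67 without PBS 1, where Ighg2b was called (adjusted p = 0.0445). It was 0.45 without Akkermansia 1, 0.31 without PBS 2 and 0.44 without PBS 3. Ighg3, the IgG3 heavy chain, had 26.5, 12.1 and 10.3 CPM with Akkermansia and 29.5, 4.60 and 10.7 CPM in PBS 1, 2 and 3. The library numbered 1 was the highest in either group, and the log2 fold change was 0.12 ± 0.83 (SE, adjusted p = 0.945). Its sign turned without PBS 2 (-0.30), PBS 3 (-0.07) or Akkermansia 1 (-0.42). Ighg1, the IgG1 heavy chain, was the least abundant, with 118, 108 and 75 counts in the Akkermansia group against 56, 21 and 93 in the PBS group. PBS 3 was here the highest PBS library, and the log2 fold change was 0.90 ± 0.42 (SE, adjusted p = 0.189). Without PBS 3 it was 1.45 and Ighg1 was called (adjusted p = 0.0176), and without PBS 2 it was 0.53.

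Of the light chains, lambda 2 rose and kappa did not pass. Iglc2 had 175, 224 and 192 counts in Akkermansia 1, 2 and 3 against 127, 117 and 112 in PBS 1, 2 and 3, or 12.9 ± 1.95 and 7.41 ± 0.467 CPM (SD, n = 3). The PBS libraries lay close together and below all Akkermansia libraries. The log2 fold change was 0.80 ± 0.16 (SE, adjusted p = 0.00588), and Iglc2 passed in all 15 alternative analyses, the only one of the 10 genes to do so. Igkc, the kappa constant gene, had 404, 324 and 343 CPM with Akkermansia and 316, 164 and 169 CPM with PBS. PBS 1 came close to the lowest Akkermansia library, while PBS 2 and PBS 3 were near each other and lower. Its log2 fold change was 0.72 ± 0.32 (SE, adjusted p = 0.219), and without PBS 1 it was 1.09 and was called (adjusted p = 0.000126).

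Levels of different genes were compared on the FPKM scale, which divides by gene length. The most abundant was Igkc, with 672 ± 76.7 FPKM with Akkermansia and 404 ± 159 FPKM with PBS, followed by Ighm with 416 ± 15.5 and 348 ± 10.3 FPKM (SD, n = 3). In the PBS group these did not differ beyond the spread of Igkc. With Akkermansia the order went on with Igha at 173 ± 28.7, Ighg2c at 123 ± 41.8, Jchain at 44.5 ± 5.89 and Ighd at 30.9 ± 7.36 FPKM. The ranges of Igha and Ighg2c overlapped in that group, where Ighg2c in Akkermansia 1 reached 166 FPKM and Igha in Akkermansia 2 had 142. Within each library Igha was the higher. It had 179, 142 and 198 FPKM in Akkermansia 1, 2 and 3, against 166, 119 and 83.0 for Ighg2c. Iglc2 (21.1 ± 3.18) and Ighg2b (19.98 ± 5.40) did not differ beyond their spread, and Ighg3 (6.48 ± 3.52) and Ighg1 (2.53 ± 0.519) were the lowest (FPKM, SD, n = 3). With PBS, Ighg2c came next after Ighm in the order of means with 85.9 ± 120 FPKM, a position set by 225 FPKM in PBS 1 against 21.3 and 11.9 in PBS 2 and PBS 3. Igha (41.7 ± 20.6), Jchain (23.0 ± 8.5), Ighd (14.9 ± 2.12), Ighg2b (12.2 ± 10.6), Iglc2 (12.03 ± 0.797), Ighg3 (5.89 ± 5.09) and Ighg1 (1.33 ± 0.826) came below, and the neighbours from Ighd to Iglc2 did not differ beyond their spread (FPKM, SD, n = 3).

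The length behind the deposited FPKM was 1327 bases for Ighg2c and between 2513 and 2679 bases for Igha, Ighg1, Ighg2b and Ighg3. Ighg2c therefore weighs more in FPKM than in counts, and the shares of Ighm, Igha, Ighg2c and the gamma genes are given on both scales. Of the FPKM summed over the 7 heavy chain genes, Ighm made up 54.1% ± 3.23 with Akkermansia and 71.2% ± 15.9 with PBS (SD, n = 3), and the groups overlapped. Of heavy chain counts it made up 50.9% ± 3.38 and 70.3% ± 13.2, with every PBS library above every Akkermansia library. Igha made up 21.6%, 18.9% and 26.8% in Akkermansia 1, 2 and 3, and 5.88%, 5.34% and 14.3% in PBS 1, 2 and 3, so the groups did not overlap. The 4 gamma genes together made up 24.8%, 19.4% and 14.2% with Akkermansia and 38.8%, 6.87% and 5.86% with PBS. PBS 1 had the highest gamma share and PBS 2 and 3 the lowest. The gamma share of heavy chain counts was 15.4% ± 4.38 with Akkermansia and 14.9% ± 15.5 with PBS. Ighg2c alone made up 15.7% ± 4.42 and 13.7% ± 17.02 of heavy chain FPKM (SD, n = 3). Of heavy chain counts, Igha had 29.9% ± 4.65 with Akkermansia and 11.8% ± 6.34 with PBS, and Ighg2c had 10.5% ± 3.11 and 10.02% ± 12.8 (SD, n = 3).

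**Figure D3:**
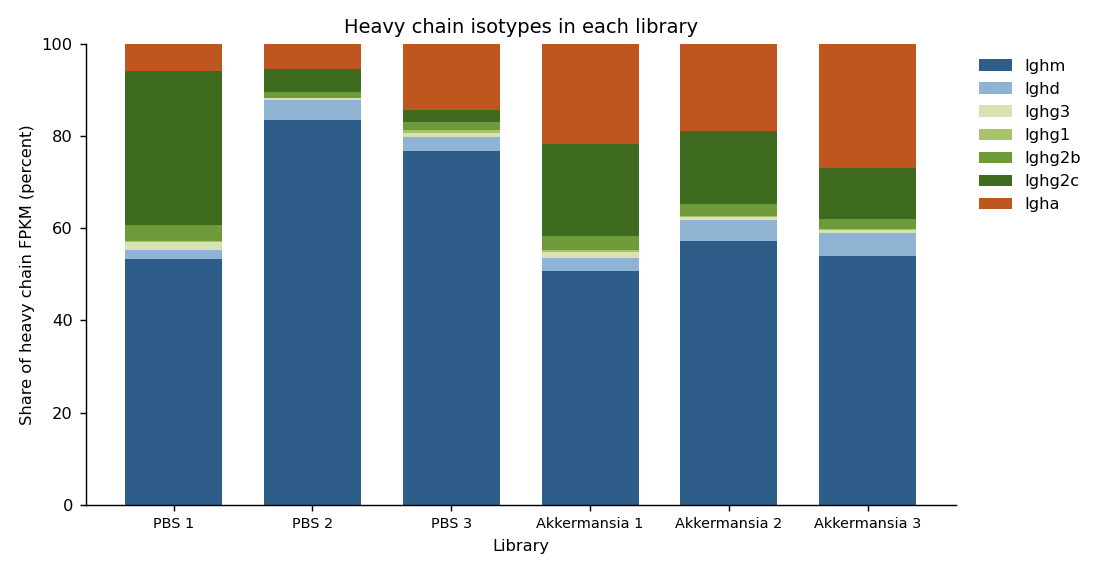
Share of each isotype in the FPKM of the 7 heavy chain genes, in percent, 1 bar per library. The alpha share is 18.9% to 26.8% in the Akkermansia libraries and 5.34% to 14.3% in the PBS libraries, and the gamma share of PBS 1 (38.8%) is the highest of all.

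Ratios between genes within a library were compared to see whether the genes had moved by different amounts. In all, 11 ratios of FPKM were tested by two-sided exact permutation tests over 3 against 3 libraries, a test that cannot give a p below 0.1 here, so no ratio could pass it. The groups did not overlap in 4 of the 11, each at the smallest exact p of 0.1 (adjusted p = 0.275). Among single genes tested, 34.9% did not overlap in either direction, a share near that of the ratios. Each of the 4 holds Igha or Ighm, so they are not separate results. Igha over Ighm was 0.425, 0.330 and 0.496 with Akkermansia and 0.110, 0.0639 and 0.187 with PBS, a log2 difference of 1.91 ± 0.48 (SE). Ighd over Ighm was 0.0536, 0.0776 and 0.0919 with Akkermansia and 0.0385, 0.0502 and 0.0401 with PBS, a log2 difference of 0.77 ± 0.26 (SE). Jchain over Igha was lower with Akkermansia in all libraries, at 0.282, 0.273 and 0.224 against 0.777, 0.631 and 0.384 with PBS (log2 difference -1.15 ± 0.32, SE). The 4th was Ighm over Cd79a, which encodes the Ig-alpha chain of the B cell receptor. It was 14.2, 10.7 and 8.97 with Akkermansia and 19.4, 20.2 and 20.5 with PBS, a log2 difference of -0.85 ± 0.19 (SE).

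In the other 7 ratios the groups overlapped. Kappa over lambda 2 (Igkc over Iglc2) was 42.0, 25.0 and 31.0 with Akkermansia and 47.4, 24.5 and 28.4 with PBS, with the library numbered 1 the highest in either group (log2 difference -0.0058 ± 0.36, SE). Summed gamma over Ighm differed by 1.08 ± 1.10 and switched over unswitched heavy chains by 1.24 ± 0.76 (log2, SE, exact permutation p = 0.4 and 0.3). The latter ratio was 0.867, 0.620 and 0.695 with Akkermansia and 0.139 and 0.253 in PBS 2 and PBS 3, with PBS 1 at 0.809. Without PBS 1 these differences were 2.15 and 1.94, without PBS 2 they were 0.57 and 0.67, and without PBS 3 the former was 0.52. Igha over summed gamma differed by 0.83 ± 1.22 and by -0.23 without PBS 1, 1.77 without PBS 3 and 0.48 without Akkermansia 3. Jchain over Igkc differed by 0.22 ± 0.23, Igkc over Cd79a by -0.32 ± 0.37 and Igha over Cd79a by 1.05 ± 0.50 (log2, SE, exact permutation p = 0.4, 0.5 and 0.2). Jchain over Igkc differed by 0.06 without PBS 2 and 0.44 without PBS 3. The difference in Igkc over Cd79a was -0.06 without PBS 1, -0.57 without Akkermansia 1, -0.20 without Akkermansia 2 and -0.17 without Akkermansia 3, and that in Igha over Cd79a was 0.67 without PBS 2.

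**Figure D4:**
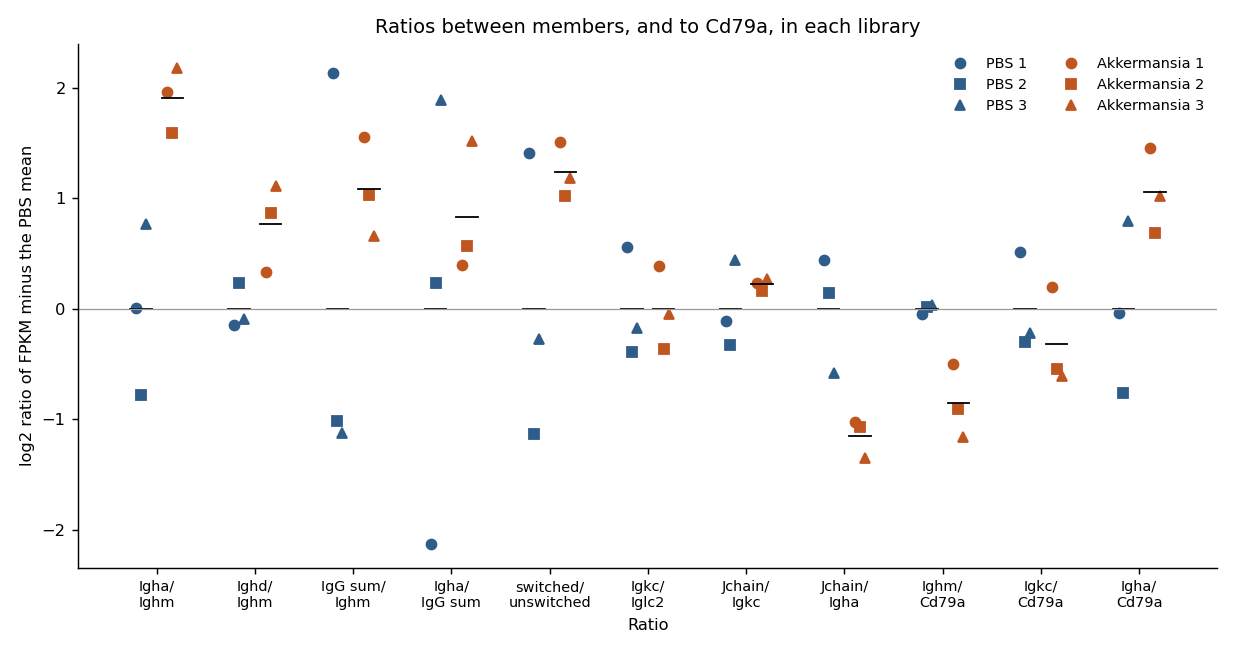
Log2 ratio of FPKM in each library minus the PBS mean of that ratio, with PBS libraries in blue, Akkermansia libraries in orange and group means as black lines. The groups are apart for Igha over Ighm, Ighd over Ighm, Jchain over Igha and Ighm over Cd79a.

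Of the other immunoglobulin constant genes, Iglc3 rose with Akkermansia and Iglc1 did not pass. Iglc3 had 54, 76 and 76 counts in Akkermansia 1, 2 and 3 against 41, 34 and 35 in PBS 1, 2 and 3 (log2 fold change 0.98 ± 0.26, SE, adjusted p = 0.025), and it was not called without PBS 3, Akkermansia 2 or Akkermansia 3. Iglc1 had 366, 263 and 256 counts in the former and 475, 74 and 130 in the latter, so PBS 1 was again the highest library. Ighe, the IgE heavy chain, had 3, 8 and 1 counts with Akkermansia and 0 in each PBS library, which allows up to 0.181 to 0.197 CPM there. Iglc4 had at most 3 counts in any library. Variable segments, summed by locus, overlapped between the groups. Heavy chain segments had 151, 114 and 121 CPM with Akkermansia and 134, 36.6 and 57.0 CPM with PBS, and kappa segments 165, 134 and 133 against 157, 63.0 and 69.8 CPM. Of 46 tested heavy chain segments 5 were called higher, of 48 kappa segments 4, and of 3 lambda segments 1, with none lower. The heavy chain and kappa counts were near the 7.32% called higher over all genes tested, of which 8.28% were called lower. The median log2 fold change was 0.69 for heavy chain, 0.48 for kappa and 0.62 for lambda segments, against -0.0081 over all genes tested.

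Genes of the B cell receptor complex rose in the same libraries. Of 17 tested, 14 rose, against 7.32% of all genes tested, and the median log2 fold change over the list was 1.04. Cd79a stood at 27.3, 24.8 and 24.3 CPM in PBS 1, 2 and 3 and at 43.4, 58.5 and 64.5 CPM in Akkermansia 1, 2 and 3 (log2 fold change 1.12 ± 0.13, SE, edgeR adjusted p = 0.000322). Its partner chain Cd79b rose by 1.40 ± 0.14 (log2, SE, edgeR adjusted p = 7.66e-05). Syk, a kinase of receptor signalling, and Cd22, an inhibitory receptor, rose by 0.81 and 1.12 (log2). The summed level of this list was 615 to 786 CPM with Akkermansia and 344 to 388 CPM with PBS. Its lowest library was PBS 1, which was the highest PBS library for 6 of the 10 immunoglobulin genes. These 6 were Ighm, Ighg2b, Ighg2c, Ighg3, Igkc and Jchain. None of the 17 genes of the B cell receptor list was at 0 in all libraries. The part of this list in the immunoglobulin results was not tested. Of 9 B lineage factors 6 rose and none fell, led by Spib (log2 fold change 1.63 ± 0.12, SE) and Pax5 (1.25 ± 0.11), the factor that keeps B cell identity. Bcl11a and Ebf1 rose by 1.14 and 0.95. The count was 3 without Akkermansia 2 and 4 without PBS 1, PBS 3 or Akkermansia 3.

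Genes of plasma cells and antibody secretion moved both ways. Of 20 tested, 4 rose and 4 fell, against 7.32% and 8.28% of all genes tested, and the list median log2 fold change was 0.07. Pdia4 and Hsp90b1, endoplasmic reticulum folding factors, rose by 0.58 ± 0.08 and 0.46 ± 0.07, and Sdf2l1 and Pou2af1 were also called higher (0.47 and 0.39). Hspa5, the chaperone BiP, had 915 ± 68.6 CPM with Akkermansia and 1303 ± 76.3 with PBS (SD, n = 3) and fell by 0.51 ± 0.08, and Xbp1, a secretory regulator of plasma cells, fell by 0.37 ± 0.07 (log2, SE, edgeR adjusted p = 0.00113 and 0.0043). Irf4 and Prdm1, plasma cell regulators that activated T cells also express, fell by 0.28 and 0.59 on the log2 scale. Without PBS 1, Akkermansia 2 or Akkermansia 3 the count was 2 higher and 2 lower, without Akkermansia 1 it was 3 and 2, and without PBS 3 it was 2 and 3. The list summed to 2222 to 2351 CPM with Akkermansia and 2455 to 2574 CPM with PBS. Some markers were chosen after their values were seen. Tnfrsf17, the plasma cell receptor BCMA, had at most 3 counts in any library. Sdc1, syndecan-1, had 2.70 ± 0.893 CPM with Akkermansia and 1.79 ± 0.352 with PBS without passing (edgeR adjusted p = 0.26). Mzb1, Derl3 and Fkbp11 did not pass either (log2 fold changes 0.54, 0.59 and -0.89, edgeR adjusted p = 0.213, 0.182 and 0.167). Of these markers only Derl3 had every Akkermansia library above every PBS library. Over the list, 12 of 20 tested genes had a log2 fold change above 0.

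Of 8 marginal zone and B-1 cell genes 3 rose, against 7.32% of all genes tested. These were Dtx1, Myof and Cd9 (log2 fold changes 0.61, 1.06 and 0.38).

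Receptors that bind immunoglobulin rose in 4 of 10 tested genes and fell in 1, against 7.32% and 8.28% of all genes tested. Fcer2a, the low-affinity IgE receptor of B cells, rose by 1.65 ± 0.19, Fcmr, an IgM receptor, by 1.18 ± 0.19, Fcgr2b, the inhibitory IgG receptor, by 0.87 ± 0.21 and Fcgrt, the neonatal Fc receptor, by 0.56 ± 0.16 (log2, SE, adjusted p = 0.000231, 0.00244, 0.0131 and 0.0304). Fcgr4, an activating IgG receptor of myeloid cells, fell by 1.07 ± 0.29 on the log2 scale (adjusted p = 0.0346), and was not called without any one of the Akkermansia libraries. The rises numbered 2 without Akkermansia 2. Among genes of IgA switching and T cell help, 2 of 11 rose and 3 fell, against the same shares of all genes tested. Tgfb1, whose product directs switching to IgA, rose by 0.33 ± 0.07 and Cd40lg, the helper ligand for B cells, by 0.32 ± 0.08 (adjusted p = 0.00542 and 0.017). Il10, Icos and Pdcd1 fell by 1.28, 0.57 and 0.71 on the log2 scale. The rises numbered 1 without PBS 1 or Akkermansia 3, and the falls numbered 1 without PBS 2, Akkermansia 2 or Akkermansia 3.

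Libraries held 15032257 to 16677923 counts, and the 10 genes took 0.203% ± 0.0141 of scaled counts with Akkermansia and 0.125% ± 0.0329 with PBS (SD, n = 3). Markers of CD4 T cells were present in all libraries, with summed levels of 5586 to 5880 CPM with Akkermansia and 5596 to 6011 CPM with PBS over 12 genes, of which 4 rose and 2 fell. Both CD8 T cell markers rose (61.3 to 93.4 against 19.1 to 20.2 CPM summed). So did 5 of 8 NK cell markers (68.2 to 82.6 against 46.1 to 55.2 CPM). Dendritic cell markers rose in 3 of 7 (37.1 to 41.7 against 16.6 to 24.4 CPM). Of 7 neutrophil markers 1 was called higher, against 7.32% of all genes tested, and 3 with DESeq2. A log2 fold change above 0 was found in 6 of the 7, with a list median of 2.11. The summed neutrophil levels did not overlap (80.5 to 180 against 13.7 to 59.1 CPM). Of 11 monocyte and macrophage markers 1 was called higher, near the 7.32% of all genes, 5 had a log2 fold change above 0, the list median was -0.08 and the summed levels overlapped (572 to 629 against 516 to 580 CPM). Of 7 erythroid markers 1 fell, against 8.28% of all genes tested, and 3 fell with DESeq2. The erythroid list median was -0.97, and its summed levels did not overlap (235 to 444 against 451 to 1031 CPM). No marker in these lists was at 0 in all libraries. The CD4 T cell rises numbered 2 without PBS 1, Akkermansia 1 or Akkermansia 3 and its falls 1 without Akkermansia 1 or 2, the dendritic cell rises 1 without PBS 1, PBS 3, Akkermansia 1 or Akkermansia 3, the neutrophil rises 2 when any one PBS library was left out, and the monocyte and macrophage rises 3 without PBS 2 and 2 without Akkermansia 1. Their part in the immunoglobulin results was not tested.

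Genes whose levels followed those of 3 members most closely were taken from 11472 candidates, by Pearson's r of log2 CPM over 6 libraries. Candidates had a mean of at least 1 CPM. Immunoglobulin genes, T cell receptor genes and predicted genes were left out beforehand, so none of these could appear. The libraries share their group difference, so r describes these libraries only. For Ighm they were Arap1, Cotl1 and Edf1 (r = 0.994, 0.993 and 0.991). For Igha they were Tmppe, Mum1 and Cerk (r = 0.9997, 0.997 and 0.997), with Tmppe at 21.8, 20.2 and 22.4 CPM with Akkermansia and 13.4, 10.8 and 15.6 CPM with PBS. For Jchain they were Cd93, Kbtbd11 and Prex1 (r = 0.992, 0.990 and 0.989). None of these 9 was on the B cell or plasma cell lists. Only the 3 highest were kept for each member, so how closely the genes of those lists followed the members is not shown.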

How the data were processed

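Poly(A)-selected RNA of 6 libraries was analysed, 3 per treatment, grouped by sample title. The authors deposited whole-number counts per gene and FPKM values. The submitters' processing notes name GRCm39. Aligner, counting program, annotation and strandedness: none of these is given by the sources used here. Genes were kept by filterByExpr (minimum count 10, minimum total count 15) in edgeR 4.0.16 (R 4.3.3), which left 15138 of 54532. Counts were scaled by trimmed mean of M values (TMM) and tested with robust quasi-likelihood fits of treatment alone, two-sided. P-values were adjusted by Benjamini-Hochberg over all genes tested, at a threshold of 0.05. Standard errors are the absolute log2 fold change over the square root of F. CPM are counts scaled to the TMM-adjusted library size. The test was checked on simulated counts. Replicate libraries differed by 4.53 to 20.3 times the sampling variance, so no pair was counted as 1 library. Intervals and p-values cover the spread between these libraries.

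Alternatives were DESeq2 1.42.0, limma-voom (limma 3.58.1), RLE size factors, no filter, a filter of 1 CPM in 3 libraries, log2(FPKM + 1) and log2(FPKM + 0.1) with limma-trend, a block for library number, and leaving out 1 library at a time. Scaling by library totals, and list counts without each library, were added after seeing the data. The members and lists were chosen with earlier results of these data known. Named genes were the members and up to 4 genes per list with the smallest p past the threshold. The 3 most abundant of the B cell, plasma cell and other constant gene lists were also named. So were the 3 genes most correlated with each of Ighm, Igha and Jchain, outside immunoglobulin, T cell receptor and predicted genes. Ighg2a was not found under this symbol. Results of some listed genes are not reported here. Of 4 surrogate light chain genes 1 was tested and not called, and without the filter on low counts 1 was called higher. Sequences are from GENCODE M21 (GRCm38), aligned with Biopython 1.88.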

Additional observations from a re-analysis of the deposited data

How the results depend on the processing

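The number of the 10 genes called higher was 3. It was 5 with DESeq2, 6 with the replicate block and 2 to 5 with 1 library left out, and within 1.5 times the main count in the other 7 alternatives; none of the 10 was called lower in any of the 15. Over all genes, calls ranged from 519 to 1287 higher and from 623 to 1413 lower with 1 library left out, against 1108 and 1253. Signs turned in 4 of 150 single-gene values, all with 1 library left out. The range was -0.020 to 2.88 for Ighg2c and -0.42 to 1.08 for Ighg3 (log2). Of 88 alternative values of the 11 ratios 4 changed sign, where leaving out a library gave -0.23 to 1.77 for Igha over summed gamma and -0.20 to 0.28 for Igkc over Iglc2. The data did not settle whether library numbers pair the samples. Deviations of same-numbered libraries from their group means correlated weakly, at 0.0846, 0.0774 and 0.0303. Each of the 6 libraries still correlated best with the library of its own number, a hint from the data and not from the design. With the replicate block, Igha (2.15, adjusted p = 0.0307), Igkc (0.79, 0.0133) and Jchain (1.00, 0.0105) were called as well. The exact permutation test used for the ratios cannot give a p below 0.1 at 3 against 3 libraries, and below 3 counts (0.181 to 0.200 CPM) a gene cannot be told from absence. The causes of these changes were not tested.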
